A study of Mus musculus with 7 samples.

Results

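The genes described here are 10 transcripts of inflammatory cytokine and NF-κB feedback biology, measured cell by cell in the immune infiltrate of mouse glioma. They are the cytokines Il1b, Il1a, Tnf and Il6, the interleukin-1 receptor antagonist Il1rn, the NF-κB precursor Nfkb1, the NF-κB feedback genes Nfkbia, Nfkbiz and Tnfaip3, and the prostaglandin enzyme Ptgs2. They were chosen by name, 10 of the 55491 gene rows of the matrix, and each was read as UMIs (unique molecular identifiers, which count captured transcript molecules) per 1000000 UMIs, or CPM, in the cells of each type of each library. Microglia were set against monocytes, macrophages and dendritic cells.

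The cells came from brain hemispheres bearing CT-2A glioma, a transplantable mouse glioma line. Live cells positive for CD45, CD11b or both were sorted after freezing and thawing, and 1 droplet 5′ library was made per mouse. All mice were engrafted at 8 to 12 weeks of age. The 4 mice labelled Siglece KO (KO below) carried the Sall1CreERT2 driver (allele B6;129-Sall1 tm5(cre/ERT2)Ryn) and floxed Siglece (Siglece fl/fl, allele B6.129P2-Siglece tm1Bcgen), and the 3 WT mice carried Siglece fl/fl without the driver. Both groups received tamoxifen, 2.5 mg per injection into the peritoneum, daily from day 7 to day 21 after tumour injection and then every other day. Sall1 is a gene of microglia, so the driver acts there, and it carries the recombinase in the Sall1 locus; no driver-positive mice without floxed Siglece were analysed here. Each mouse is 1 replicate.

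Interleukin-1 beta and interleukin-1 alpha signal through the same receptor, which the product of Il1rn occupies without signalling. Interleukin-1 beta is made as an inactive precursor that an inflammasome protease cleaves, while the precursor of interleukin-1 alpha is already active and can act as an alarm signal from damaged cells. NF-κB induces these cytokines together with its own brakes: IκBα (Nfkbia) retains NF-κB in the cytoplasm, A20 (Tnfaip3) removes the ubiquitin chains that the signal needs, and the nuclear protein IκBζ (Nfkbiz) directs a secondary set of targets. In brain tumours microglia are the resident macrophages, and monocytes entering from blood become macrophages and dendritic cells.

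The libraries held 1410 to 5856 cells and 16037214 to 38966377 UMIs, with a median of 4479 to 9554 UMIs per cell, 28644 cells in all. The authors' 23 cell type names were used. Microglia numbered 414 (30, 21, 13 and 49 in KO replicates 1 to 4 and 113, 92 and 96 in WT replicates 1 to 3), against 1521 monocytes, 5956 macrophages, 1569 monocyte-derived dendritic cells (mo-DCs) and 2818 conventional dendritic cells (cDC1 and cDC2). KO replicate 3, with 13 microglia, was left out of the fits that use microglia, except the alternative that took libraries with at least 10 cells. Siglece had 2, 1, 0 and 0 UMIs in the KO and 20, 19 and 7 in the WT microglia, or 6.6 CPM (95% Poisson interval 1.36 to 19.3) against 34.2 CPM (25 to 45.6) with mice pooled, and in macrophages 47.3 against 48.5 CPM; the intervals cover counting error only. Microglial Sall1, whose locus carries the driver in KO mice, stood at 59.4 CPM (KO) and 123 CPM (WT). Of the fixed markers, 9 of 10 for microglia, 4 of 7 for monocytes, 6 of 8 for macrophages, 4 of 6 for mo-DCs and 7 of 9 for conventional dendritic cells were highest in the class of that name. No doublet caller was run, and 460 barcode sequences occurred in more than 1 library.

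The promoters of 5 members are shown because they differ in whether they hold the DNA element that NF-κB binds. RefSeq (GRCm38.p6) gave windows for 8 of the 10 members, none for Nfkbiz and Nfkb1. Each sequence is the 250 bases before the RefSeq start, 5′ to 3′ on the strand of the gene, and the capitals mark matches, on either strand, to the κB consensus or to TATAAA, the core of the TATA box; no matches overlapped each other.
Il1b (chr2:129371140-129371389, minus strand): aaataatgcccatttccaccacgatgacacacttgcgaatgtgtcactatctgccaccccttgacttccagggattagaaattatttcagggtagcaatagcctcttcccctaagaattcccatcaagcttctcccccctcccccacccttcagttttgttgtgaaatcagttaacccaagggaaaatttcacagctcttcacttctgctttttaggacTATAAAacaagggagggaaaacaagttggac
Il1a (chr2:129309973-129310222, minus strand): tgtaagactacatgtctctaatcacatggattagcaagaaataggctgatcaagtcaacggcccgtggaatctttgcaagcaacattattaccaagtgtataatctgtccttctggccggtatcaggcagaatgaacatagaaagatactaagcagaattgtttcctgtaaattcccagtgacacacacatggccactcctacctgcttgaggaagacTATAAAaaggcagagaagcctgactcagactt
Il6 (chr5:30012864-30013113, plus strand): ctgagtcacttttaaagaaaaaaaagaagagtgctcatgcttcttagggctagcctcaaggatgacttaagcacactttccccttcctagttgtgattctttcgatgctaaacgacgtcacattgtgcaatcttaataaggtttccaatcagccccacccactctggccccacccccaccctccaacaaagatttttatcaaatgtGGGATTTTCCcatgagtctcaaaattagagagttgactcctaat
Nfkbia (chr12:55492648-55492897, minus strand): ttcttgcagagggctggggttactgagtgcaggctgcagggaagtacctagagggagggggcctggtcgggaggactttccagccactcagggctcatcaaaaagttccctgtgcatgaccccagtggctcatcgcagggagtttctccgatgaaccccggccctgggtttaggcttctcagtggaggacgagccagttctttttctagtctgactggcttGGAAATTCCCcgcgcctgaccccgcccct
Tnfaip3 (chr10:19015411-19015660, minus strand): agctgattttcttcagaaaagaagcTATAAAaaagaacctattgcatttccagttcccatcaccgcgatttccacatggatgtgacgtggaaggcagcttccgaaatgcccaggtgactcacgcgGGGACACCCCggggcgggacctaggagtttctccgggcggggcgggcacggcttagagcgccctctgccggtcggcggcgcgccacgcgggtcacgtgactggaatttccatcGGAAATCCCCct

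Il1b and Il1a, neighbours on chromosome 2, held TATAAA at bases -31 to -26 and -32 to -27 and no κB match; Tnf held TATAAA at -29 to -24. Il6 held a κB match at -44 to -35, Nfkbia at -29 to -20, and this Tnfaip3 window held κB matches at -125 to -116 and -12 to -3 besides TATAAA at -225 to -220. Il1rn (3 windows), Ptgs2 and another Tnfaip3 window held neither. Of 32851 RefSeq windows of that length, 7.25% held a κB match and 12.4% held TATAAA. A match describes these letters only, and distal elements were not looked at. In GENCODE M21, whose positions follow, Tnfaip3 starts further upstream than in RefSeq, so its printed window lies almost wholly inside the GENCODE gene. In GENCODE M21 (GRCm38) Il1b lies at chr2:129364570-129371139, Il1a at chr2:129299610-129309972 and Il1rn at chr2:24336853-24351494; Tnf at chr17:35199381-35202007; Il6 at chr5:30013114-30019981; Nfkbia at chr12:55489410-55492647; Nfkbiz at chr16:55811375-55838899; Tnfaip3 at chr10:19000910-19015657; Ptgs2 at chr1:150100031-150108227; and Nfkb1 at chr3:135584655-135691547, all protein-coding genes.

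Il1b was a transcript of monocytes first. In monocytes it had 5355, 3562, 5471 and 6612 CPM in KO replicates 1 to 4 and 7598, 5441 and 5586 CPM in WT replicates 1 to 3. In microglia it had 568, 195.7, 108.4 and 760.9 CPM in KO and 352, 205.3 and 657.4 CPM in WT, the 108.4 resting on 4 UMIs. Every monocyte value lay above every microglial value, as 1 class lay wholly above the other for 32.8% of the genes tested in those 2 classes. Macrophages stood between, at 1513, 1128, 1542 and 2400 CPM in KO and 1210, 1152 and 1405 CPM in WT. By cell type name the order was monocytes (5661 ± 1242 CPM, SD, n = 7 mice), the macrophages named P3 (2419 ± 739.5, n = 7), mo-DCs (1837 ± 504.1, n = 7), the macrophages named P5 (1150 ± 366.4, n = 7), proliferating macrophages (599.9 ± 501.7, n = 6), main microglia (490.7 ± 309, n = 3), cDC2 (390.2 ± 261.7, n = 7), cDC1 (327.1 ± 216.4, n = 7), low-quality or activated microglia (205 ± 80.27, n = 5) and plasmacytoid dendritic cells (55.26 ± 18.65, n = 7). Means are over libraries with at least 20 cells of that name. For the main microglia these were the 3 WT mice only, here and for the genes below, so that name is set beside names measured in both genotypes. The steps from monocytes to P3, from mo-DCs to P5 and from low-quality microglia to plasmacytoid cells were larger than the combined SD of the 2 neighbours; the other steps were not. The descent from monocytes to P3 to P5 held in 7 of 7 mice.

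**Figure D1:**
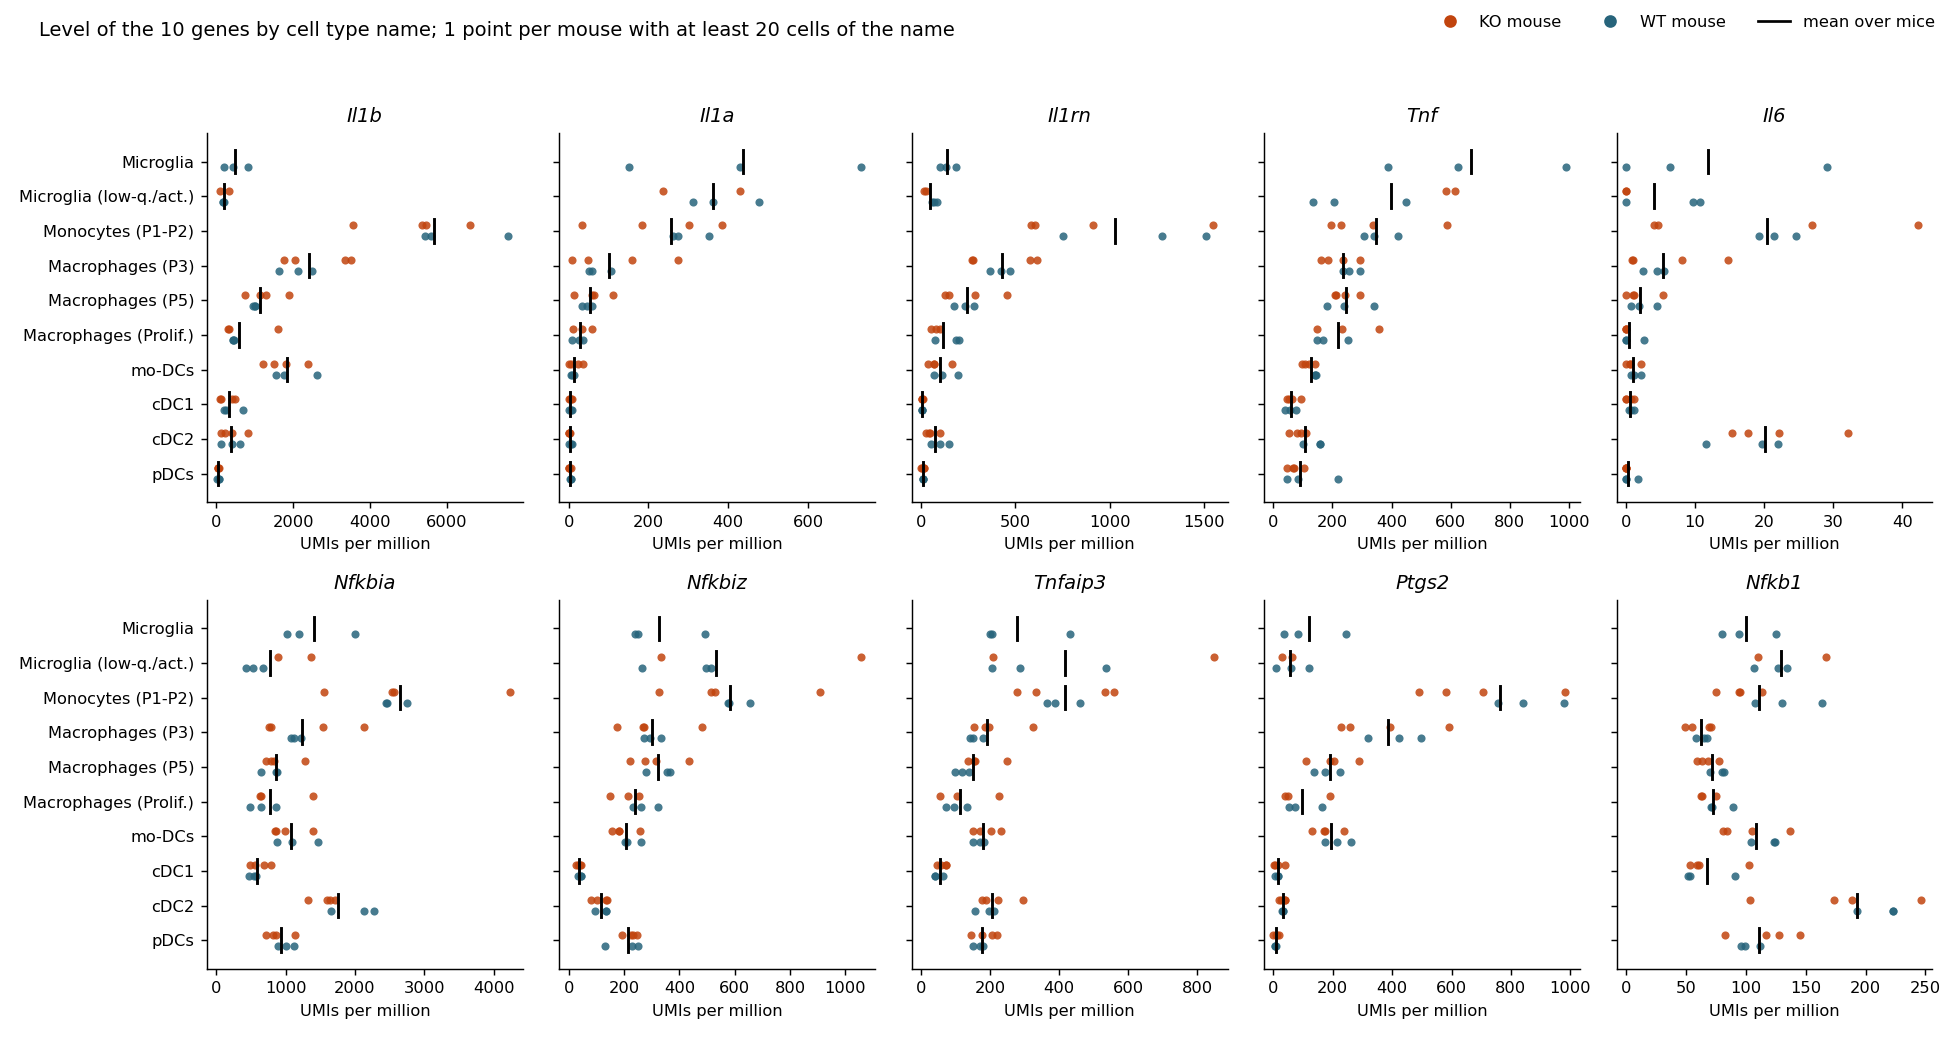
Levels of the 10 genes (CPM, linear axes that differ between genes) by cell type name; each point is 1 mouse with at least 20 cells of that name, orange for KO and blue for WT, and the black line is the mean over mice. Il1b is highest in monocytes (mean 5661 CPM), while Il1a and Tnf have their highest means in the main microglia (438.2 and 667.4 CPM, from the 3 WT mice only).

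Il1a was distributed otherwise. In microglia it had 418, 117.4, 379.4 and 727.6 CPM in KO and 222, 401 and 662.7 CPM in WT. In monocytes it had 302.4, 184.8, 33.18 and 383.7 CPM in KO and 352.7, 262.5 and 273.8 CPM in WT, so that the 2 classes overlapped. Macrophages had 130.6, 53.05, 10.73 and 97.82 CPM in KO and 38.04, 48.26 and 74.29 CPM in WT, below microglia in each of the 6 mice compared. By name the means ran from main microglia (438.2 ± 290 CPM, n = 3) and low-quality microglia (363 ± 95.29, n = 5) through monocytes (256.2 ± 117.5, n = 7), P3 (100.7 ± 90.06, n = 7) and P5 macrophages (54.85 ± 30.47, n = 7) to mo-DCs (13.93 ± 12.33, n = 7), cDC1 (4.598 ± 2.618, n = 7) and cDC2 (2.934 ± 2.494, n = 7). Only the step from monocytes to P3 was larger than the combined SD of its neighbours.

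The balance of the 2 interleukins separated microglia from the other myeloid classes. Of the Il1a and Il1b UMIs counted together in all mice, Il1a made up 49.5% in microglia (exact 95% interval 46.9% to 52.0%, counting error only; 768 of them Il1a and 785 Il1b), 4.44% in monocytes, 4.27% in macrophages, 0.74% in mo-DCs and 1.32% in conventional dendritic cells. The main microglia had 45.4% and the low-quality microglia 64.3% with all mice pooled. In WT replicates 1 to 3 the main name had 25.8%, 67.0% and 47.1%, and the low-quality name 66.3%, 62.7% and 69.0%. The order of the 2 names thus did not hold in each mouse. T, NK and B cells together had 5.94%. Within microglia the single mice ranged from 37.5% to 77.8%. UMIs count captured molecules, so the share compares cell types and not the absolute levels of the 2 genes.

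**Figure D2:**
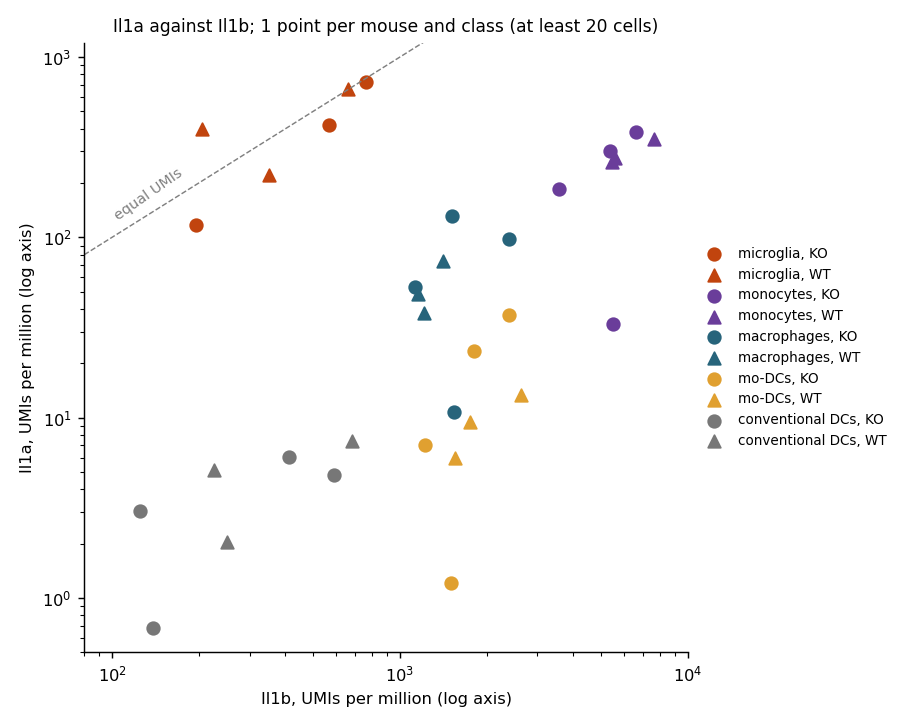
Il1a against Il1b (CPM, both axes log) for each mouse and class with at least 20 cells, circles for KO and triangles for WT, with a dashed line where both genes have equal UMIs. Microglia lie near the line (Il1a share 49.5% over all mice) and monocytes, macrophages and dendritic cells lie far to its Il1b side (0.74% to 4.44%).

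KO replicate 3 stood apart in Il1a, a pattern chosen after its values were seen. It was the lowest of 7 mice in monocytes (33.18 CPM, next 184.8), macrophages (10.73, next 38.04), mo-DCs (1.209, next 5.997) and conventional dendritic cells (0.679, next 2.028). Its Il1b lay inside the range of the other mice in those 4 classes, and its Il1a share was 0.603% in monocytes and 0.691% in macrophages, against 4.44% to 5.49% and 3.05% to 7.94% in the other mice. Its 13 microglia held 14 Il1a UMIs, 379.4 CPM, within the range of the other mice.

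Il1rn, the antagonist, was highest in monocytes and lower in microglia. Monocytes had 604.8, 582.7, 911 and 1548 CPM in KO and 1512, 1275 and 751.5 CPM in WT. Microglia had 10.72, 19.57, 0 and 166.6 CPM in KO (2, 1, 0 and 30 UMIs) and 151.6, 113.5 and 90.13 CPM in WT; the 0 in the 13 cells of KO replicate 3 allows up to 81.3 CPM, taking 3 UMIs as the limit of a count of 0. In 3 of the 4 KO libraries microglial Il1rn thus lay below all WT libraries, and in KO replicate 4 above them. By name monocytes (1026 ± 414.9 CPM, n = 7), P3 (428.2 ± 136.4, n = 7) and P5 macrophages (242.5 ± 113.7, n = 7) led, each step larger than the combined SD, and the order held in 7 of 7 mice. The mo-DCs, at 102.5 ± 57.79 CPM (n = 7), were below P5 macrophages. The conventional dendritic names differed: cDC2 had 74.34 ± 43.79 CPM (n = 7) and cDC1 6.131 ± 2.806 CPM (n = 7), with cDC2 above cDC1 in 7 of 7 mice.

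Tnf, which acts through its own pair of receptors, overlapped between microglia and monocytes. Microglia had 707.3, 293.6, 135.5 and 688.7 CPM in KO and 303.3, 579.7 and 776.7 CPM in WT, and monocytes 338.2, 230.2, 193.5 and 588.7 CPM in KO and 340.6, 306.5 and 422.4 CPM in WT. By name the main microglia had 667.4 ± 303.5 CPM (n = 3), low-quality microglia 396.7 ± 218 (n = 5), monocytes 345.7 ± 131 (n = 7), P5 245.5 ± 54.87 (n = 7), P3 237 ± 49.94 (n = 7), mo-DCs 127.6 ± 19.49 (n = 7), cDC2 107.4 ± 38.48 (n = 7) and cDC1 60.68 ± 18.22 (n = 7). Helper T cells reached the monocyte level, the Tfh name having 375.3 ± 92.38 (n = 6) and the Th1 name 342.9 ± 49.65 CPM (n = 6). Only the step from proliferating macrophages (217.3 ± 80.87, n = 6) to mo-DCs was larger than the combined SD.

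Il6, which acts on other cells through a shared signalling chain, was near the limit of the depth. It had 20.48 ± 13.24 CPM in monocytes (n = 7) and 20.11 ± 6.484 CPM in cDC2 (n = 7), with 0.6186 ± 0.5144 CPM in cDC1 (n = 7). Microglia held 0, 0, 0 and 3 UMIs in KO and 2, 2 and 9 UMIs in WT; the 3 counts of 0 allow up to 16.1, 58.7 and 81.3 CPM.

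The feedback genes were present in every class. Nfkbia had 2539, 1552, 2564 and 4228 CPM in KO and 2755, 2441 and 2463 CPM in WT monocytes, and 1608, 920.0, 596.1 and 1716 CPM in KO and 852.1, 1005 and 1641 CPM in WT microglia. Within each of the 6 mice compared, monocytes were the higher. Among the myeloid and dendritic names, monocytes (2649 ± 796.2 CPM, n = 7) were followed by cDC2 (1760 ± 327.9, n = 7) and main microglia (1405 ± 525.9, n = 3), and cDC1 was lowest (586.1 ± 110.9, n = 7). Of the other names, regulatory T cells (3130 ± 467.9, n = 6) stood above monocytes, and tumour or stromal cells (428.6 ± 218.1, n = 5) below cDC1. Nfkbiz had 584.6 ± 175.6 CPM in monocytes (n = 7), 533.1 ± 311.1 in low-quality microglia (n = 5), 327.5 ± 142.2 in main microglia (n = 3) and 38.44 ± 7.379 in cDC1 (n = 7). Tnfaip3 had 416.6 ± 104.7 CPM in monocytes (n = 7), 416.2 ± 276.2 in low-quality microglia (n = 5), 278.4 ± 131.1 in main microglia (n = 3) and 56.35 ± 13.87 in cDC1 (n = 7), and no step in its order was larger than the combined SD. Nfkb1, whose product is processed to the p50 subunit, was highest in cDC2 (192.9 ± 46.55 CPM, n = 7). Among the myeloid and dendritic names it was lowest in P3 macrophages (62.37 ± 8.167, n = 7), while several other names stood below that, such as B cells (37.97 ± 20.2, n = 6). For Nfkbia, Nfkbiz, Tnfaip3 and Nfkb1 alike, cDC2 lay above cDC1 in 7 of 7 mice.

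Ptgs2, the inducible cyclooxygenase, followed Il1b in its first name, monocytes, and its second, P3 macrophages. Monocytes had 582, 491.8, 705 and 983.8 CPM in KO and 978.5, 756.2 and 841.8 CPM in WT, and microglia 64.3, 156.6, 352.3 and 188.8 CPM in KO and 93.87, 28.98 and 193.5 CPM in WT. No monocyte value overlapped a microglial one, as for Il1b. P3 macrophages had 386.9 ± 130.8 CPM (n = 7), mo-DCs 194.6 ± 45.26 (n = 7) and P5 macrophages 189.5 ± 58.02 (n = 7), and the descent from monocytes to P3 to P5 held in 7 of 7 mice. That descent held in 6 of 7 mice for Il6, Nfkbia and Tnfaip3, in 5 of 7 for Il1a, and in 1 of 7 for Tnf, Nfkbiz and Nfkb1.

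The authors split microglia into a main name (163 cells, median 6226 UMIs, 2.06% mitochondrial) and a name for low-quality or activated cells (251 cells, median 2222 UMIs, 4.77% mitochondrial). Both names rest on the same UMIs, so the comparison is a description, made within the 3 WT mice that had at least 20 cells of each. The main name was higher in 3 of 3 mice for Tnf (log2 ratio of CPM 1.43 ± 0.903, SD), Nfkbia (1.33 ± 0.34), Il1b (1.13 ± 0.878) and Il1rn (0.934 ± 0.353), and lower in 3 of 3 for Nfkbiz (-0.397 ± 0.607), Nfkb1 (-0.314 ± 0.178) and Tnfaip3 (-0.274 ± 0.219). Il1a differed by -0.0538 ± 1.04 and was higher in the main name in 2 of 3. The summed level of 19 dissociation stress genes was 20790 to 28970 CPM in the main and 33550 to 46650 CPM in the low-quality name of the WT mice; its part in these differences was not tested.

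The share of cells with a UMI was compared at equal depth, each cell being thinned to 1500 UMIs and 41 microglia with fewer left out (4 monocytes, 50 macrophages). Il1b was found in 20.9% of microglia (exact 95% interval 16.9% to 25.4%), 81.0% of monocytes and 48.7% of macrophages, against 7.28% of T cells, read as background. Il1a was found in 28.2% of microglia (23.6% to 33.0%), 18.4% of monocytes, 5.6% of macrophages and 0.506% of T cells. Before thinning the Il1b shares were 36.0%, 90.3%, 69.0% and 18.9% at median depths of 3058, 5730, 6408 and 4748 UMIs, and the Il1a shares 39.4%, 31.3%, 14.3% and 1.37%. For Tnf the shares were 31.1% of microglia (26.4% to 36.1%) and 32.8% of monocytes (30.4% to 35.2%), with T cells, whose helper names had Tnf at the monocyte level, at 19.8%. At 3000 UMIs the microglial and monocyte shares were 41.3% (34.6% to 48.2%) and 49.7% (47.1% to 52.4%). The 41 microglia left out at 1500 UMIs were all of the low-quality name. At 3000 UMIs more cells of that name fell out, its median depth being 2222 UMIs against 6226 in the main name. The microglia compared at the 2 depths thus differ in make-up. All these intervals pool the cells of all mice and leave out the spread between mice, so they do not test whether 2 classes differ. Il1rn and Ptgs2 were found in 6.97% and 9.12% of microglia and in 52.5% and 49.9% of monocytes, with 1.75% and 1.63% in T cells. Il6 was found in 0.804% of microglia and 2.31% of monocytes.

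**Figure D3:**
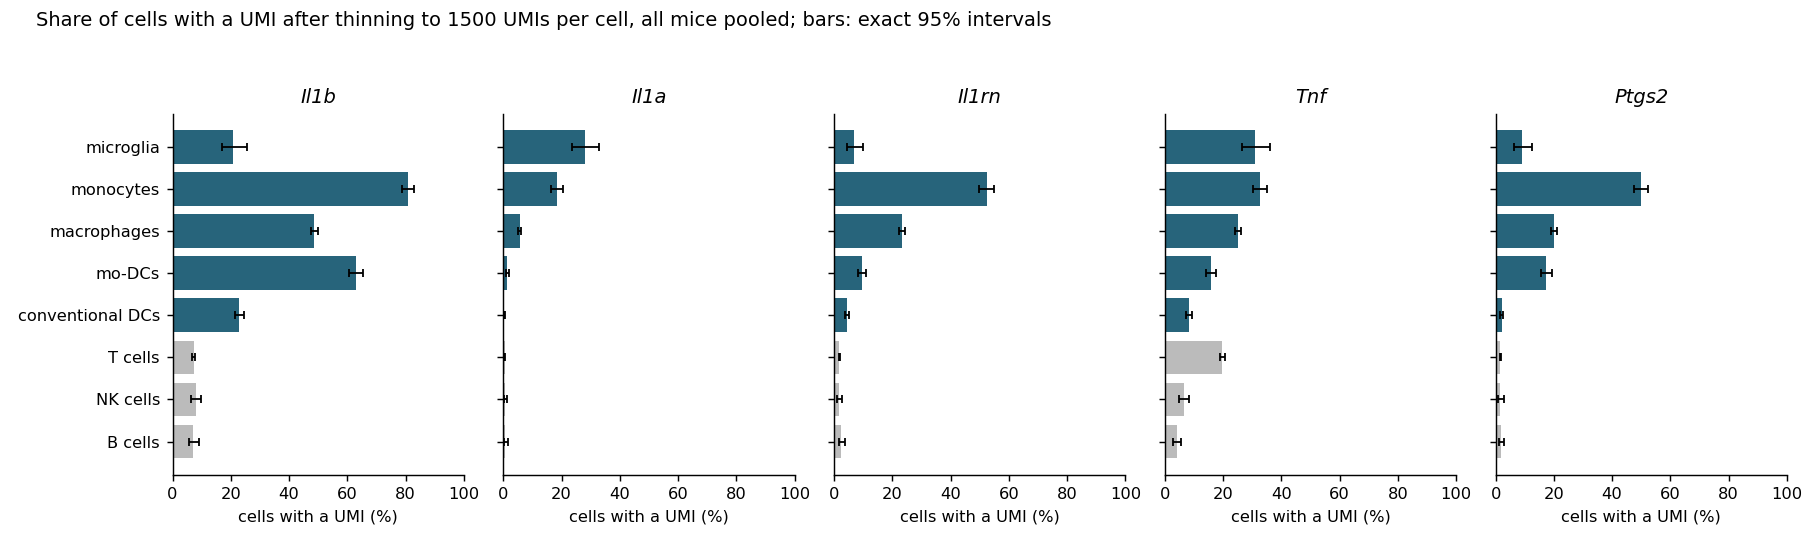
Percent of cells with at least 1 UMI of Il1b, Il1a, Il1rn, Tnf and Ptgs2 after thinning to 1500 UMIs, by class with all mice pooled, lymphoid classes in grey and bars for exact 95% intervals. Il1b was found in 20.9% of microglia and 81.0% of monocytes, and Il1a in 28.2% and 18.4%.

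Single cells differed in whether both interleukins were found together. Of the microglia with an Il1a UMI at 1500 UMIs (105 cells), 34.3% also had an Il1b UMI, against 15.7% of the microglia without Il1a. Of the monocytes with Il1a (279 cells) 97.5% also had Il1b, against 77.3% of the others, and of the macrophages with Il1a (331 cells) 75.8%, against 47.1%. At that depth the 38 microglia with the most UMIs of a gene, of 373, held 74.2% of Il1b, 67.1% of Il1a and 63.9% of Tnf UMIs. The same share of monocytes held 34.1%, 79.4% and 57.6%. The cells were ranked by the same UMIs that were summed, and few UMIs per cell raise such a percentage by themselves. For Il1b, microglia held 155 UMIs in 373 cells and monocytes 13487 UMIs in 1517 cells at that depth. These percentages thus cannot show whether microglia differ more from cell to cell than monocytes do.

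Microglia were then tested against each class over 6 mice, with 1 term per mouse, by edgeR's quasi-likelihood test with Benjamini-Hochberg adjustment over all genes. The cell type names were given on the same UMIs, so these p-values are not independent of the naming. Log2 changes below come from this fit and are microglia over the other class. They use the scaling of the fit, so they can differ from ratios of the CPM given above. Il6 fell under the filter on low counts in each of the 4 contrasts, so 9 of the 10 members were tested. Under alternatives that did test it, Il6 was called lower than in monocytes in 4 of 5 (-1.95 to -1.41), higher than in macrophages in 4 of 7 (1.21 to 1.53) and higher than in mo-DCs in 1 of 1 (2.17, with no filter), and was not called against conventional dendritic cells in 4, all by edgeR. Several of these fits left out KO libraries with 0 microglial Il6 UMIs, so Il6 passed the filter through the libraries where it is high. All calls kept WT replicate 3, the library with the most microglial Il6 UMIs. Over all 6 mice with no filter Il6 was 1.01 against macrophages and was not called (adjusted p = 0.133, edgeR). By CPM microglia were above macrophages in 4 of 6 mice. The other 2, KO replicates 1 and 2, held 0 microglial Il6 UMIs, which allow up to 16.1 and 58.7 CPM. No direction can be read from those 2 mice, against macrophages or monocytes. In the 4 mice with microglial Il6 UMIs, the log2 ratio to monocytes ran from -2.57 to -0.0482. Fits with the main microglia name alone held the 3 WT mice only, since no KO library had 20 such cells, and fits with the low-quality name alone held 5 mice, so the 2 names were not compared over the same mice.

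Against monocytes, 5 of 9 members were lower in microglia and none higher, where 58.7% of the 5787 genes tested were called (29.3% higher, 29.4% lower). Il1b was lower by the most, log2 change -4.04 (SE 0.23, adjusted p = 1.29e-12, edgeR), a 16.4-fold difference found in 6 of 6 mice. Il1rn (log2 change -3.79, 13.8-fold) and Ptgs2 (-3.20, 9.2-fold) followed. The feedback genes Nfkbia (-1.34) and Nfkbiz (-0.86) were lower by less; Nfkbiz did not pass in KO mice alone (-0.50, adjusted p = 0.0743, edgeR). Il1a (0.16, SE 0.22), Tnf (0.27, SE 0.18), Tnfaip3 (-0.40, SE 0.20) and Nfkb1 (-0.27, SE 0.19) did not pass, with edgeR adjusted p of 0.546, 0.196, 0.0903 and 0.224. The 95% interval for Il1a, -0.29 to 0.62, excludes a difference of the size seen for Il1b. Tnf was 0.56 with the main name alone, in the 3 WT mice (adjusted p = 0.0156, edgeR), and -0.55 with the low-quality name alone, in 5 mice (adjusted p = 0.0411, edgeR). Without WT replicate 1 Tnf passed at 0.47. Tnfaip3 and Nfkb1 passed over the same 6 mice with no filter on low counts (-0.74 and -0.60), without KO replicate 1 (-0.56 and -0.47), in WT mice alone (-0.92 and -0.71) and with the main name alone in the same 3 WT mice (-0.87 and -0.65); in KO mice alone they were 0.13 and 0.36 and did not pass. Tnfaip3 also passed with the low-quality name alone (-0.48, adjusted p = 0.0474, edgeR). With no filter Il1a (-0.16) and Tnf (-0.06) moved down as well, so that setting did not lower Tnfaip3 and Nfkb1 alone. By CPM within mice, microglia were above monocytes in 4 of 6 for Tnfaip3 and in 3 of 6 for Nfkb1. The mean log2 ratios of CPM were -0.0818 and 0.0731. With the main microglia alone Ptgs2 was -3.30, as large as with both names, but with an SE of 0.66 it did not pass (adjusted p = 0.052, edgeR).

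Against macrophages, where 43.6% of 10432 genes were called (20.8% higher, 22.8% lower), 4 members were higher in microglia and 3 lower. Il1a was higher by 2.27 (SE 0.20, 4.82-fold, adjusted p = 2.58e-11, edgeR), Tnfaip3 by 0.91, Tnf by 0.87 and Nfkb1 by 0.45. Il1b (-2.07), Il1rn (-1.87) and Ptgs2 (-1.55) were lower. The Tnf difference was not found in the low-quality microglia: with that name alone it was -0.25 (adjusted p = 0.271, edgeR), and Nfkbia, at 0.05 in the fit of both names, was 0.46 with the main and -1.25 with the low-quality name, both past the threshold. By CPM within mice, Nfkbia in microglia was above macrophages in 6 of 6 (mean log2 ratio 0.383). Nfkbiz, at 0.05 (adjusted p = 0.837, edgeR), did not pass. Nfkb1 passed in 8 of 18 alternatives; those that lost it include DESeq2 (0.39), no filter (0.23) and leaving out KO replicate 1, KO replicate 4 or WT replicate 1.

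Against mo-DCs, where 54.6% of 8405 genes were called (26.8% higher, 27.8% lower), 4 members were higher (Il1a 4.53, 23.1-fold; Tnf 1.78; Tnfaip3 0.79; Nfkbiz 0.64) and 2 lower (Il1b -2.40; Ptgs2 -1.19). Il1a in mo-DCs was 13.93 ± 12.33 CPM (n = 7), beside 7.02 ± 6.868 CPM in naive or early activated CD4 T cells (n = 7). The fitted 4.53 thus has a low denominator and its size is uncertain. Nfkbiz did not pass in 6 of 18 alternatives: by DESeq2 (0.52), with no filter (0.36), without KO replicate 4 (0.42), without WT replicate 3 (0.53), in WT mice alone (0.34) and with the main microglia name alone (0.37). Nfkb1 was -0.11 and Nfkbia -0.03, and neither passed. Il1rn, at -0.42 (SE 0.22, adjusted p = 0.113, edgeR), passed with no filter (-0.70), without the top 5% of cells by UMIs (-0.61), without WT replicate 2 (-0.70), in KO mice alone (-0.89) and with the low-quality microglia alone (-1.69, adjusted p = 6.81e-06, edgeR), where Nfkbia passed as well (-1.15, adjusted p = 5.67e-05, edgeR). With the main microglia alone Il1rn was 0.10 and Nfkbia 0.16, and Ptgs2 (-1.16) and Tnfaip3 (0.55) did not pass. Against conventional dendritic cells, where 60.9% of 8746 genes were called (30.1% higher, 30.9% lower), 6 members were higher and none lower: Il1a by 6.23 (6 of 6 mice), Tnf by 2.72, Nfkbiz by 2.56, Ptgs2 by 2.34, Il1rn by 1.89 and Tnfaip3 by 1.81. Il1a in conventional dendritic cells, 4.164 ± 2.362 CPM (n = 7), was at the level of T cells (3.3 ± 1.717 CPM, n = 7), so the fitted 6.23 is set by a denominator near background and its size is uncertain. Ptgs2 in cDC1 (14.34 ± 12.52 CPM, n = 7) and cDC2 (30.69 ± 7.163, n = 7) stood beside 21.59 ± 13.86 CPM in naive or early activated CD4 T cells (n = 7). Il1rn in cDC1 (6.131 ± 2.806 CPM, n = 7) stood beside 22.71 ± 11.07 CPM in those T cells (n = 7). The sizes for Ptgs2 and Il1rn are thus uncertain as well. Il1b (0.06), Nfkbia (0.32) and Nfkb1 (0.09) did not pass. With the low-quality microglia alone Il1b (-1.54) and Nfkbia (-0.85) passed as lower, and Nfkbia passed as higher with the main name alone (0.58) and without KO replicate 2 (0.35) or WT replicate 1 (0.44), all by edgeR. Il1rn was 0.00 against cDC2 alone (adjusted p = 0.989, edgeR) and 0.56 with the low-quality microglia alone (adjusted p = 0.144, edgeR), and passed in neither. The 2 dendritic names differed from microglia in opposite directions for Nfkbia, 0.87 against cDC1 and -0.76 against cDC2, and for Nfkb1, 0.65 and -0.98, all past the threshold by edgeR. The median member change was -0.86, 0.05, -0.03 and 1.89 in the 4 contrasts, beside -0.01, -0.02, -0.01 and -0.04 over all genes tested. Over the 6 mice, the values of 3 of the 10 members did not overlap between microglia and monocytes (32.8% of the genes tested), of 2 for macrophages (Il1b and Il1rn; 22.1%), of 3 for mo-DCs (Il1b, Il1a and Tnf; 32.0%) and of 4 for conventional dendritic cells (Il1a, Tnf, Nfkbiz and Tnfaip3; 38.5%).

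**Figure D4:**
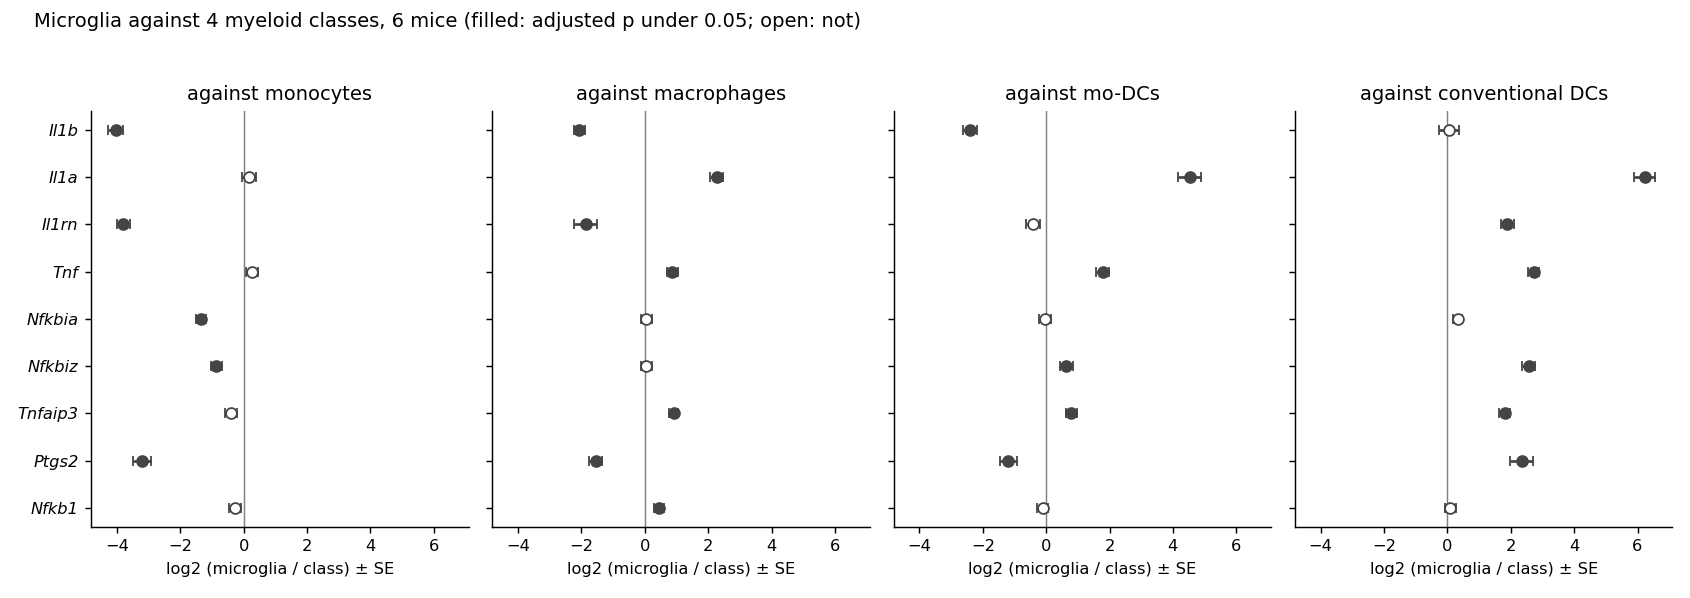
Log2 change of each tested member, microglia over the named class, from edgeR over 6 mice; bars are 1 SE each way, and filled points pass an adjusted p of 0.05. Il1b is lower in microglia than in monocytes (-4.04), macrophages (-2.07) and mo-DCs (-2.40), and Il1a higher than in macrophages (2.27), mo-DCs (4.53, against a low level, so uncertain in size) and conventional dendritic cells (6.23, against a level like that of T cells, so uncertain in size).

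Markers of other myeloid cells were summed in the microglia as well. The 8 macrophage markers came to 12890 to 18510 CPM in microglia, against 13440 to 30760 CPM in macrophages and 6064 to 14660 CPM in monocytes; their part in the contrasts was not tested. With mice pooled, most of the microglial sum was Apoe (7360 CPM, 17400 in macrophages) and C1qa (6300 CPM, 3900 in macrophages). C1qa and Gpnmb stood higher in microglia than in macrophages. The other markers of that list stood lower, among them Ms4a7 (100 against 643 CPM). The 7 monocyte markers summed to 61.62 to 181.6 CPM in microglia against 5340 to 10100 CPM in monocytes. The 8 neutrophil markers summed to 91.79 to 171.5 CPM in microglia and 75.6 to 168.4 CPM in monocytes, with 1 to 4 of the 8 found in the microglia of a library. Nearly all of the microglial sum was Csf3r (128 CPM with mice pooled), the next marker, S100a9, standing at 2.78 CPM. Without the microglia that held a UMI of Ly6c2, Ccr2, Plac8 or Chil3, a step added after the data were seen, no member called in these 4 contrasts lost its call. The dissociation stress genes summed to 25070 to 35710 CPM in microglia, 20520 to 30240 in monocytes, 12440 to 24030 in macrophages, 17910 to 26370 in mo-DCs and 14220 to 20710 CPM in conventional dendritic cells; their part in the class differences was not tested.

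The lists of other pathway genes were also chosen with results of these data known, and their counts stand beside 29.3% higher and 29.4% lower over all genes tested against monocytes. Of 16 tested NF-κB target genes outside the members, 13 were lower in microglia and 3 higher, led by the neutrophil chemokines Cxcl1 (log2 change -5.14) and Cxcl2 (-4.23), then Traf1 (-4.00) and Tnfaip2 (-3.39). The 3 higher, Ccl4 (1.64), Ccl3 (1.12) and Icam1 (0.48), are named after their values were seen. Of 15 NF-κB subunits, IκB proteins and kinases, 9 were lower and 1 higher (Nfkbie -1.84, Ikbke -1.48, Bcl3 -1.30, Nfkb2 -1.20). Of 12 feedback inhibitors 7 were lower and 1 higher (Tnip3 -3.22, Dusp2 -2.09, Tnip1 -1.69, Tax1bp1 -1.41). Among 12 receptors and adaptors 5 were lower, led by the interleukin-1 decoy receptor Il1r2 (-4.56), and 2 higher, led by the interleukin-6 signal chain Il6st (1.55). Of 9 inflammasome and processing genes 5 were lower, led by the sensor Nlrp3 (-1.68), and 1 higher. The prostaglandin list, which also holds the leukotriene genes Alox5 and Alox5ap, had more genes higher than lower, unlike Ptgs2. Of its 8 tested genes 5 were higher, with Hpgds (4.24), the constitutive cyclooxygenase Ptgs1 (3.59) and Hpgd (2.06), and 2 lower (Alox5ap -1.93). Of 19 stress genes 8 were higher and 5 lower.

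Against macrophages, where 20.8% of all genes tested were higher and 22.8% lower, 11 of 18 tested target genes were lower in microglia and 4 higher, with Cxcl3 (-5.10), Cxcl1 (-3.63) and Cxcl2 (-2.80) lower and Il12b (2.49) higher. Of 16 subunits, IκB proteins and kinases, 2 were higher and 1 lower. Of 14 receptors and adaptors Il1r2 (-2.77) was lower and Il6st (2.05) and Il6ra (0.85) higher. Of 13 feedback inhibitors 5 were lower, led by Tnip3 (-1.97), and 1 higher. Of 10 inflammasome genes 2 were lower (Nlrc4 -2.55, Il18bp -1.13) and 1 higher (Aim2 0.98). Of 11 genes of the prostaglandin list 6 were higher, with the leukotriene gene Alox5 (3.70), Hpgd (3.52) and Ptgs1 (2.00), and 2 lower, with the receptor Ptger2 (-4.14). Of 19 stress genes 7 were higher and 2 lower.

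Against mo-DCs, Il1r2 (-6.04) and Traf1 (-4.44) were the list genes lower by the most, and Ptgs1 (5.17) and Hpgd (4.19) those higher by the most. There, beside 26.8% higher and 27.8% lower over all genes tested, 3 of 16 tested targets were higher and 5 lower, 3 of 16 subunits and kinases higher and 7 lower, and 3 of 9 inflammasome genes higher and none lower. Of 13 receptors and adaptors 4 were higher and 2 lower, and of 10 genes of the prostaglandin list 6 were higher and 3 lower. Against conventional dendritic cells, where 30.1% of all genes were higher and 30.9% lower, 7 of 9 inflammasome genes were higher and none lower, led by Nlrp3 (2.43), and 6 of 16 targets were higher and 7 lower, with Ccl3 (4.89) higher and Traf1 (-5.01) lower. The alternative NF-κB subunits Relb (-1.94) and Nfkb2 (-1.47) were lower, among 7 lower and 4 higher of 16 subunits and kinases. Ptgs1 and Hpgd were each higher by 6.49, among 6 higher and 3 lower of 10 genes of the prostaglandin list. Of 19 stress genes, 7 were higher and 3 lower against mo-DCs (median 0.11) and 12 higher and 2 lower against conventional dendritic cells (median 0.69); their part in these differences was not tested.

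KO was then compared with WT in each class, which bears on whether removing the inhibitory receptor Siglec-E from microglia went with a different cytokine programme. No member was called by edgeR's quasi-likelihood test with Benjamini-Hochberg adjustment in any of the 5 classes, in 48 tests of members of which 2 had an unadjusted p under 0.05; DESeq2 called 0 of the 48. Leaving out 1 mouse moved the 2 to between 1 and 12, with 12 without KO replicate 4 and 4 each without KO replicate 1, KO replicate 2 and WT replicate 3, and no filter gave 6 of 50. Over all genes, 0.0415% were called in microglia (2 of 4820, 0.0207% higher and 0.0207% lower, with 570 at an unadjusted p under 0.05 and 3 called by DESeq2), and 0.0% in monocytes, macrophages, mo-DCs and conventional dendritic cells, where 535, 655, 798 and 817 genes had an unadjusted p under 0.05 and DESeq2 called 0, 19, 34 and 14. Tnfaip3 in microglia was 364.4, 469.8, 514.8 and 622 CPM in KO and 232.9, 200.5 and 458.6 CPM in WT, a log2 change of 0.70 (SE 0.31, unadjusted p = 0.0314, adjusted p = 0.359, edgeR). Nfkb1 in monocytes was 94.29, 75.18, 95.38 and 113.5 CPM in KO and 130.4, 107.4 and 163.3 CPM in WT (log2 change -0.53, SE 0.20, adjusted p = 0.675, edgeR). The groups overlapped for both. Tnf in mo-DCs was 107.9, 119.8, 96.73 and 140.5 CPM in KO and 141.9, 145.3 and 141.3 CPM in WT, with all KO below all WT mice (-0.33, adjusted p = 0.666, edgeR). This was the 1 of 50 pairs of member and class without overlap, where 8.17% of the genes tested in mo-DCs did not overlap; in microglia, monocytes, macrophages and conventional dendritic cells those shares were 18.7%, 7.69%, 6.05% and 7.8%.

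In microglia the intervals were wide: Il1b 0.42 (95% interval -1.01 to 1.84), Il1a 0.09 (-1.67 to 1.86), Tnf 0.08 (-0.69 to 0.86) and Ptgs2 0.33 (-1.96 to 2.62), at 3 mice against 3. The main name made up 33.3%, 33.3% and 30.6% of the microglia of KO replicates 1, 2 and 4 and 38.9%, 52.2% and 40.6% of those of WT replicates 1 to 3; the part of this make-up in the genotype values was not tested. Il1rn depended on single mice. With 6 mice its log2 change was -0.63 (SE 0.78, adjusted p = 0.792, edgeR). Without KO replicate 4, which left 2 KO libraries with 3 Il1rn UMIs between them, it was -3.24 (SE 0.62, adjusted p = 0.00378, edgeR), and without KO replicate 1 it was 0.06 (adjusted p = 0.979, edgeR). T cell markers summed to 69.66 to 137 CPM in KO and 12.64 to 38.65 CPM in WT microglia, NK cell markers to 5.554 to 42.87 and 0 to 2.415 CPM, and neither list overlapped between the genotypes. The microglia markers summed to 6221 to 9415 CPM in KO and 8594 to 12200 CPM in WT (medians 7570 and 11690), the macrophage markers to 13490 to 18510 and 12890 to 14380 CPM, and the stress genes to 30340 to 35710 and 25070 to 33780 CPM; their part in these values was not tested.

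**Figure D5:**
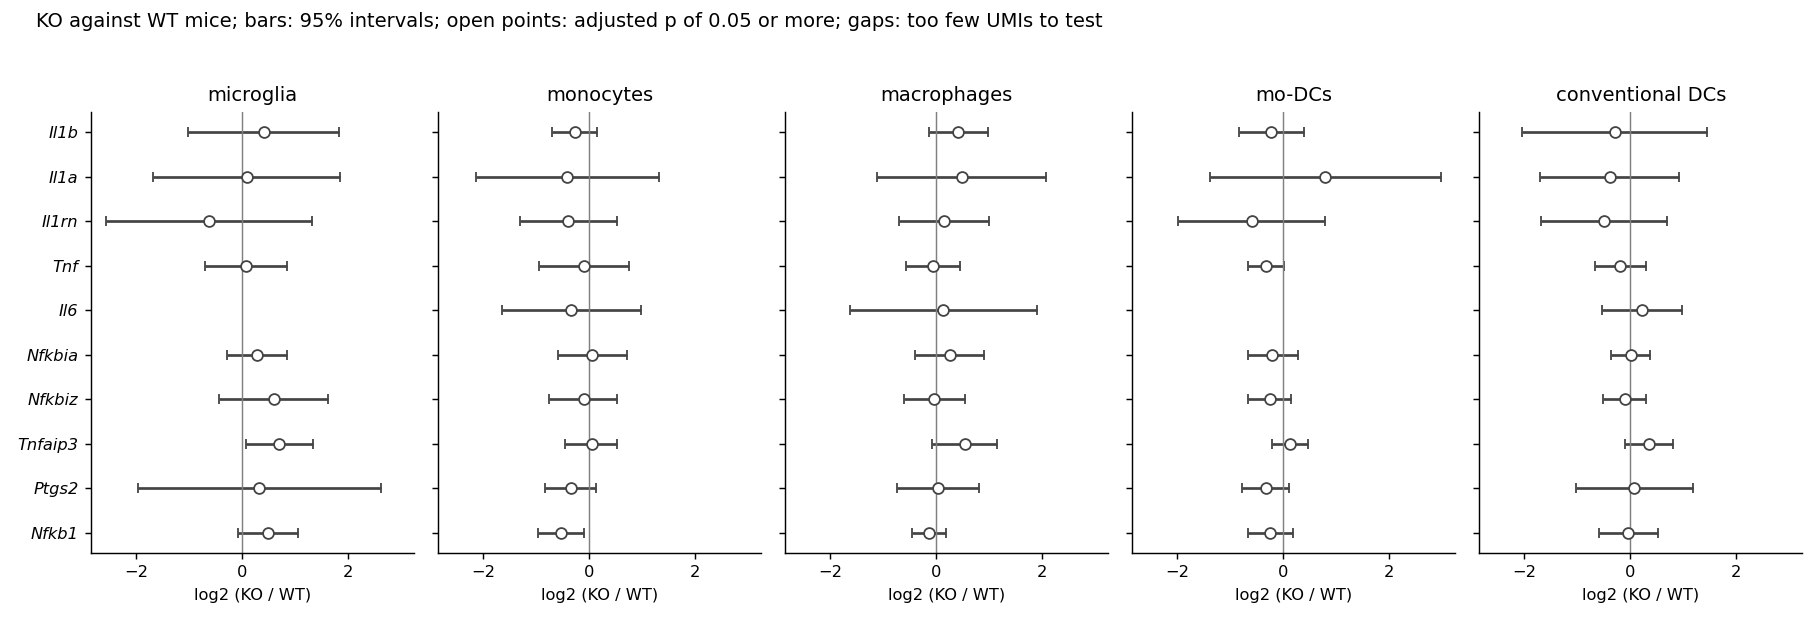
Log2 change, KO over WT, of each tested member in each class from edgeR, with bars for the 95% interval. No member passed an adjusted p of 0.05 in any class, and the intervals in microglia are wide (Ptgs2 -1.96 to 2.62).

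Whether the genotype difference in microglia differed from that in another class was tested with a class-by-genotype term. Against macrophages Il1rn was the 1 member of 10 that passed, at -1.35 (SE 0.36, adjusted p = 0.0434, edgeR), where 0.474% of 11812 genes were called (0.135% higher, 0.339% lower). The median over all genes tested was -0.1. The degrees of freedom of this test were 1810 (16900 for Il1a), so SE and p lean on spread shared over genes and hardly on that between mice. The log2 ratio of Il1rn, microglia over macrophages, ran from -4.86 to -0.503 over the 6 mice. Macrophage Il1rn was 311.1, 180.2, 190.5 and 496.3 CPM in KO and 214.8, 290.2 and 305.1 CPM in WT, with overlap, beside the low microglial values of KO replicates 1 and 2. The call was lost in 8 of 13 alternatives, among them DESeq2 (-1.65, adjusted p = 0.157) and leaving out 1 mouse: -0.72 and -1.27 without KO replicates 1 and 2, -0.94 and -1.48 without WT replicates 1 and 2. The direction was the same each time. Il1a, at -0.90 (adjusted p = 0.0908, edgeR), passed without KO replicate 4 (-1.58) and with whole-number entries only (-0.97, adjusted p = 0.046, edgeR). Against monocytes edgeR called no member of 10 (0.434% of 7372 genes, 0.285% higher and 0.149% lower; 875 had an unadjusted p under 0.05, and DESeq2 called 18); without WT replicate 3 Il1b (1.20) and Tnfaip3 (1.31) passed. In these 2 tests the pathway lists held 3 called genes: Nlrp3 (1.29, which stands in both the inflammasome and the NF-κB target list) and Ptger4 (1.75) against monocytes and Alox5ap (-1.14) against macrophages.

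Over 56 sums of 9 myeloid names (plasmacytoid cells left out) in the libraries with at least 20 cells, the genes most like Il1b among 8513 with a mean of at least 10 CPM were Ptgs2 (Pearson r of log2(CPM + 1) = 0.89), the adenosine receptor Adora2b (0.888), Fosl2 (0.875), Clec4e (0.871) and Ifitm3 (0.844). Those most like Nfkbia were Ehd1 (0.83), Gadd45b (0.82), Nfkbie (0.804), Ptafr (0.788) and Txnrd1 (0.783). Among the members, Il1rn and Ptgs2 had r = 0.89, Tnf and Nfkbiz 0.841, Il1a and Tnf 0.797, Il1b and Il1a 0.349, and Il1b and Nfkb1 -0.104. The sums share libraries and depth, so these are descriptions with no test.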

How the data were processed

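Droplet 5′ single-cell RNA was sequenced from 7 mice (4 KO, 3 WT). Per the submitters' processing notes the tools were FastQC 0.11.5, STARsolo and STAR 2.7.10a with genome build mm10; how cells were filtered and named, and how doublets were handled, is not given in the sources used here. The deposited matrix holds UMI values of 55491 genes in 28644 cells, which were taken for expected counts, since 7.51% of the values above 0 are not whole, per the deposited file itself; all UMIs of the 10 members are whole. Cell type names come from the authors' deposited annotation. For each mouse and class the UMIs of its cells were added up and rounded. CPM is UMIs per 1000000 UMIs of those cells.

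Sums of libraries with at least 20 cells were tested with edgeR 4.0.16 (quasi-likelihood, TMM, filterByExpr, robust) in R 4.3.3, with Benjamini-Hochberg adjustment over all genes and a threshold of 0.05, and with a term per mouse for class contrasts and class-by-genotype terms. DESeq2 1.42.0 was an alternative. Python 3.11.15, numpy 2.4.6, scipy 1.17.1, pandas 2.3.3 and matplotlib 3.10.9 served for the rest; the fits were tested on simulated data. Steps are larger than the combined SD where the gap between 2 means exceeds the root of their summed variances. Intervals of shares and pooled levels are exact binomial or Poisson at 95% and cover counting error only; those of log2 changes use the SE and the degrees of freedom of the edgeR test. The mice of a group are the replicates. The rule for named genes was the 10 members (the plots show those tested that the text does not name) and, from each other list, at most 4 called genes with the largest log2 change; genes named beyond it were chosen after their values were seen. Members and lists were chosen with earlier results of these data known. Alternatives changed the tool, normalization, filter, cells, cell type names, covariates and mice. For the sex term, the sex of each mouse was read from its T cells, by UMIs of Xist against those of Ddx3y, Eif2s3y, Kdm5d and Uty. The balance of the sexes between KO and WT is not given here.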

Additional observations from a re-analysis of the deposited data

Results flagged for a closer look

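Tnfaip3 in macrophages of KO replicate 4 was 275.1 CPM, far from the other 3 KO mice, of which the next was 158.2 CPM; the gap was 0.894 of the range, above Dixon's critical value for 4 samples. It was the 1 such value among 40 groups of 4 mice, and chance gives about 1 in 20.

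The genotype difference of Il1rn differed between microglia and macrophages by -1.35 (log2, adjusted p = 0.0434, edgeR's quasi-likelihood test), resting on 2, 1 and 30 UMIs in the KO microglia that entered the fit. That p leans on spread shared over genes (degrees of freedom 1810) and hardly on the spread between mice.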

How the results depend on the processing

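Of the 25 member differences called, 456 alternative values were computed: 424 kept direction and call, 31 lost the call and 1 turned, Tnf against macrophages with the low-quality microglia alone (-0.25). The cause of the changes below was not tested. The genes called between KO and WT in microglia (2) became 41 with no filter, 4 with whole-number entries, 21 without the top 5% of cells, 10 with a sex term, 0 with equal cells per mouse, 5 with the low-quality name, 12 without cells holding a monocyte-marker UMI (added after the data were seen) and 3 to 15 leaving out 1 mouse (3 without WT replicate 1, 15 without KO replicate 2, 7 otherwise). From 0, no filter gave 70, 3, 182 and 14 in monocytes, macrophages, mo-DCs and conventional dendritic cells; DESeq2 gave 19, 34 and 14 in the last 3; leaving out 1 mouse gave 0 to 3 in monocytes, 0 to 3 in macrophages, 0 to 2 in mo-DCs and 0 to 2 in conventional dendritic cells, above 0 without KO replicate 4 in all 4 classes (3, 3, 2 and 2), without WT replicate 2 in macrophages (1) and without WT replicate 1 in conventional dendritic cells (1). Against monocytes 3395 became 5336 with no filter and 2030 in KO mice; against macrophages 4551 became 2766 in KO mice and 2174 with the main name; against mo-DCs 4593 became 2857 with the main name. The class-by-genotype counts, 32 (monocytes) and 56 (macrophages), became 18 and 21 by DESeq2, 13 and 26 with at least 10 cells, and 7 to 57 and 11 to 115 leaving out 1 mouse; the first became 53 without the top 5% of cells.

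Replicate numbers were not taken to pair the mice. Correlations of deviations between mice of a number ran from -0.231 to 0.204. With so few mice they cannot show whether mice of a number were handled together. A replicate block between genotypes gave 17, 3, 3, 8 and 5 called genes in microglia, monocytes, macrophages, mo-DCs and conventional dendritic cells, 14 of 48 member tests at an unadjusted p under 0.05, and Il1rn in microglia at -3.42 (adjusted p = 0.00119, edgeR). KO replicate 4 has no WT mouse of its number, so the block took it out of the genotype difference, and in microglia WT replicate 3 as well. These values thus largely repeat leaving out KO replicate 4, which gave 12 of 48 and Il1rn at -3.24. With no term per mouse in the class contrasts and class-by-genotype fits, both class-by-genotype counts became 0, Nfkbia against mo-DCs 0.01, and Nfkbiz against monocytes -0.74 (adjusted p = 0.0507, edgeR).

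Members not called that turned, among the 61 member differences checked, are given below. Differences within 1 SE of 0 that no alternative called were not checked, other than Il1a against monocytes, so their directions are open. Some that turned were past the threshold by edgeR. With the low-quality name these were Tnf against monocytes, Nfkbia against macrophages, and Il1b and Nfkbia against conventional dendritic cells. Against cDC2 they were Nfkbia and Nfkb1. Between KO and WT, equal cells per mouse gave Nfkbia -0.01 and Nfkb1 -0.07 in microglia and Il1b 0.07 and Ptgs2 0.15 in monocytes; in microglia leaving out 1 mouse gave Il1rn from -3.24 (without KO replicate 4) to 0.06 (without KO replicate 1) and Nfkbiz from -0.09 (without KO replicate 4) to 0.92. Against monocytes, no filter gave Il1a -0.16 and Tnf -0.06, the low-quality name Il1a -0.17 and Tnf -0.55, KO mice Tnfaip3 0.13 and Nfkb1 0.36, and leaving out 1 mouse Il1a from -0.05 (without WT replicate 3) to 0.45. Nfkbia against macrophages was -0.17 with no filter and without monocyte-marker cells, -0.08 with at least 10 cells, -0.25 without the top 5% of cells, -0.06 in KO mice, -1.25 with the low-quality name and -0.06 to 0.10 leaving out 1 mouse. Against mo-DCs the main name gave Il1rn 0.10 and Nfkbia 0.16, and Nfkbia was 0.09 in KO mice and -0.19 to 0.20 leaving out 1 mouse. Against conventional dendritic cells Il1b was -0.06 by DESeq2 and its size factors, -0.30 with no filter, -0.24 without the top 5% of cells, -0.20 in WT mice, -1.54 with the low-quality name, -0.36 without monocyte-marker cells, -0.01 against cDC2 (added after the data were seen) and -0.26 to 0.34 leaving out 1 mouse. Nfkb1 there was -0.03 by DESeq2 and its size factors, -0.26 with no filter, -0.05 without the top 5% of cells, -0.12 in WT mice, -0.04 and -0.20 with the main and low-quality name, -0.98 against cDC2 and from -0.02 (without KO replicate 4) to 0.18 leaving out 1 mouse. Nfkbia there was -0.05 with no filter, -0.85 with the low-quality name and -0.76 against cDC2. DESeq2's size factors moved the median of all genes in that contrast from -0.04 to -0.15. The KO against WT fit with the main microglia name could not be fitted, as no KO library held 20 such cells.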
